A study of Mus musculus with 32 samples.

Results

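The retina of the rd1 mouse was compared with itself at 2 ages, postnatal day 8 (P8) and postnatal day 6 (P6), to follow what its rods and other cells expressed in the last days before rod death begins. Of the 32 arrays of the series, 8 entered this comparison: 4 of rd1 retina at P8 and 4 of rd1 retina at P6, chosen by their labels, with the values of all 22626 probe sets that are not Affymetrix controls. The rd1 mice were homozygous for the linked retinal degeneration 1 and light ear mutations (rd1/le) on a C57BL/6 background, and carry a defective Pde6b, which encodes a catalytic subunit of the phosphodiesterase that breaks down cGMP in rods. The 4 wild-type (wt) samples at P8 and the 4 at P6, of mice homozygous for the normal allele on the same background, were used where the change in rd1 was set against normal maturation. No animal received a treatment, each sample pooled 8 to 14 whole retinas, and every array was an Affymetrix MOE430A chip, read as Robust Multichip Average (RMA) values on the log2 scale. A pool of whole retinas holds all retinal cell types, so fewer cells of a type and less RNA per cell cannot be told apart. All rd1 animals carry the light ear mutation as well, so the effects of both loci cannot be told apart either.

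At these ages the mouse retina is finishing its construction. Progenitors leave the cell cycle, the last-born rods, bipolar cells and Mueller glia differentiate, the outer segments that hold the visual pigment start to grow, and the ribbon synapses between photoreceptors and bipolar cells form. Rods close their cGMP-gated channels in light when transducin activates the phosphodiesterase. In rd1 this enzyme is not functional, cGMP builds up, and the rods die within weeks, beginning soon after P8. The crystallins, the main proteins of the lens, are also expressed at low levels in retinal neurons and glia.

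The arrays were not alike in quality, and this touches the results that follow. Among rd1 P8 arrays 1 to 3 the log2 values correlated at 0.995 over all probe sets, whereas rd1 P8 array 4 correlated with them at 0.983 to 0.988, and on it lens transcripts stood far above the other arrays. The 4 rd1 P6 arrays correlated with one another at 0.986 to 0.997. The mean log2 signal of the 18S ribosomal RNA controls was 4.79, 4.78, 4.93 and 3.57 on the rd1 P8 arrays, against 4.61, 7.17, 9.80 and 9.53 on the rd1 P6 arrays. The Gapdh 3′ control exceeded the 5′ control by 0.04 to 0.12 on the rd1 P8 arrays and by 0.29 to 0.74 on the rd1 P6 arrays, with the larger values on arrays 3 and 4. The wt arrays differed between these ages as well. Their 18S means were 4.69, 4.34, 4.75 and 4.65 at P8, against 9.74, 8.17, 4.37 and 9.77 at P6. Their Gapdh 3′ control exceeded the 5′ control by 0.13 to 0.30 at P8 and by 0.28 to 0.71 at P6. These signs of RNA quality differed between the ages as well as between arrays, and their part in any single difference was not tested. Results that rest on a list are given with all arrays and without rd1 P8 array 4, and a count that moved by more than 1.5 times when rd1 P6 arrays 3 and 4 were left out is given that way as well. Of the genes named below as called between the ages, Cngb1, Rpgrip1, Syt1, Glul, Gad1, Malat1, Cryaa, Bfsp1, Prox1, C1qa, Ctss, Cldn5, Birc2, Fos and Egr1 were not called without those 2 P6 arrays. The 27 Bacillus control probe sets, for which the samples hold no transcript, ranged up to 4.89, and levels under that value are within the background range. A difference from a group in that range gives no exact fold. No 2 arrays held identical values. The mutant gene served as a check of the labels. Pde6b was lower on every rd1 array than on any wt array of its age, with 10.96 to 12.04 at rd1 P8 against 13.57 to 13.91 at wt P8, and 10.52 to 10.92 at rd1 P6 against 13.30 to 13.38 at wt P6. At P2, an age used here for the estimate of spread alone, it ranged between 6.84 and 9.24 on the rd1 arrays and between 6.96 and 9.76 on the wt arrays, so at P2 this gene did not separate the arrays by their labels.

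Between P6 and P8, 4144 of the 22626 probe sets (18.3%) passed the limma test at a Benjamini-Hochberg adjusted p under 0.05, 2163 of them higher at P8 (9.56%) and 1981 lower (8.76%). Without rd1 P8 array 4, 3364 passed (14.9%), and 3030 probe sets (13.4%) were called in the same direction both ways. For 4019 probe sets (17.8%) the 4 values at P8 did not overlap with the 4 at P6. To describe groups of genes, each gene was read by its brightest probe set, and of 12403 such genes 1147 were higher at P8 (9.25%) and 1119 lower (9.02%), with a median difference over all genes of 0.02. All differences below are rd1 P8 minus rd1 P6 on the log2 scale, between means of 4 arrays each, with their standard error (SE). Each SE comes from the limma variance pooled over every group of the series, P2 included, and not from the scatter of the compared arrays alone. The shares of 9.25% and 9.02% are the background against which each group is read. The background was 6.56% higher and 7.68% lower without rd1 P8 array 4, 4.9% higher and 6.51% lower without rd1 P6 arrays 3 and 4, and 3.78% higher and 5.84% lower without all 3 of these. The 4 values at P8 lay above all 4 at P6 for 8.88% of genes and below them for 8.8%.

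Of the gene groups described below, those of rods and of mitosis are shown first by the promoters of members that rose or fell. The last 160 bases before the start site are shown for 4 rod genes that rose and 4 mitotic genes that fell, because each shows the motif of its group (RefSeq, mouse build GRCm38.p6). Capitals mark TAATCC, the core bound by the photoreceptor homeodomain factors Crx and Otx2, CCAAT, the box bound by NF-Y, and TTTGAA, the cell cycle homology element, each on either strand (read on the other strand as GGATTA for the Crx core, ATTGG for the CCAAT box and TTCAAA for the cell cycle element).
Gngt1, rod transducin gamma, chr6:3993848-3994007, plus strand: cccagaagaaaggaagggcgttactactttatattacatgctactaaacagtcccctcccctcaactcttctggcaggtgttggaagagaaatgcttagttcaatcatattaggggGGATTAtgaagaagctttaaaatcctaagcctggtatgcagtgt
Gucy2e, photoreceptor guanylate cyclase, chr11:69237023-69237182, minus strand: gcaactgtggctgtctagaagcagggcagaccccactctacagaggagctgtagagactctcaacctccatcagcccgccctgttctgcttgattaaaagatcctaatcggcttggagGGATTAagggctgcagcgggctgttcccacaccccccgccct
Cngb1, rod cGMP-gated channel beta subunit, chr8:95306586-95306745, minus strand: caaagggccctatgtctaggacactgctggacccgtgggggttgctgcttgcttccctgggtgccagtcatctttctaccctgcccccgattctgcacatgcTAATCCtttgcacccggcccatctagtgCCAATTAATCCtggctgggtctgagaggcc
Aipl1, chaperone of the rod phosphodiesterase, chr11:72037510-72037669, minus strand: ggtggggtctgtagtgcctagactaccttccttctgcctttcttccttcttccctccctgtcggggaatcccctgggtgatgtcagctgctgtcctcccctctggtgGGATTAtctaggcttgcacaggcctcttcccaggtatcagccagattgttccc
Mki67, the proliferation antigen Ki-67, chr7:135716380-135716539, minus strand: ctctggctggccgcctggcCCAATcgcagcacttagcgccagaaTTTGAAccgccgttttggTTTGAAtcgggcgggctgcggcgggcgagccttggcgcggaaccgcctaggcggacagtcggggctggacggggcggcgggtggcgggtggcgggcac
Top2a, topoisomerase II alpha, chr11:99024190-99024349, minus strand: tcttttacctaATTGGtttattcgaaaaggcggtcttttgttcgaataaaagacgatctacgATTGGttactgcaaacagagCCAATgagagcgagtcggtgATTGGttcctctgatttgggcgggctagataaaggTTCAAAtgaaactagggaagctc
Cdc20, activator of the anaphase-promoting complex, chr4:118437344-118437503, minus strand: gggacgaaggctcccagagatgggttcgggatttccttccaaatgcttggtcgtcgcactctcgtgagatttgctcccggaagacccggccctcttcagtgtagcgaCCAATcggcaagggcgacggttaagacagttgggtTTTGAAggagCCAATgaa
Ccnb1, cyclin B1, chr13:100786487-100786646, minus strand: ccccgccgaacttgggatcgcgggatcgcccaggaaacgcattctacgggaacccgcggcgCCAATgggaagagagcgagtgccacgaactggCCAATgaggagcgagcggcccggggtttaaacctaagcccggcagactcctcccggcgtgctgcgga

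In Cngb1 a CCAAT runs directly into a TAATCC, and Ccnb1 holds CCAAT but no TTTGAA in this stretch. Over the whole 300-base window of the reference table, from 250 bases before to 50 after the start site, TAATCC was found in 8 of the 13 promoters (61.5%) that were listed for the 21 rod members that rose, against 7.16% of all 27025 promoters. Of the 36 mitotic members that fell, 31 had a listed promoter, and 24 of these (77.4%) held CCAAT and 23 (74.2%) held TTTGAA. Over all promoters the shares were 37.9% for CCAAT and 18.1% for TTTGAA. Of the 13 rod promoters 5 (38.5%) held CCAAT and 0 held TTTGAA, and of the 31 mitotic promoters 0 held TAATCC. Of the 11 promoters listed for the 14 bipolar members that rose, 3 (27.3%) held TAATCC, 6 (54.5%) CCAAT and 4 (36.4%) TTTGAA. The members here are those called with all arrays, and the shares were not worked out without rd1 P8 array 4. Cngb1 was not called without that array. These matches describe the sequences and were not tested as binding sites.

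Genes of rod phototransduction and the outer segment rose together. Of the 34 measured members of the rod list, 21 rose (background 9.25%), 1 fell and 12 did not pass, with a median difference of 0.77 against 0.02 over all genes. The 4 values at P8 all lay above the 4 at P6 for 26 members. Without rd1 P8 array 4, 17 rose and 1 fell and the median was 0.66. The mean log2 level over the list was 10.83, 11.24, 10.55 and 11.48 on the rd1 P8 arrays, against 9.95, 10.15, 9.94 and 9.90 on the rd1 P6 arrays, so the age groups did not overlap and array 4 was the highest. Without rd1 P8 array 4 and rd1 P6 arrays 3 and 4 together, 11 rose.

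Slc24a1, Gnat1 and Pde6a had the largest rises of the rod list. Slc24a1, the rod sodium, calcium and potassium exchanger that extrudes calcium from the outer segment, had log2 values of 7.75, 9.78, 6.46 and 11.004 at rd1 P8, against 4.98, 4.79, 4.45 and 3.79 at rd1 P6. The difference was 4.25 ± 0.55 (adjusted p = 2.71e-06), and without array 4 it was 3.497. Most of its P6 values were within the background range. All values at P8 exceeded all values at P6, but the values at P8 were themselves spread widely, with arrays 4 and 2 high and array 3 low. Gnat1, the transducin alpha subunit that couples the visual pigment to the phosphodiesterase, had values of 10.82, 12.24, 9.90 and 13.87 at rd1 P8, against 8.46, 8.39, 8.33 and 8.00 at rd1 P6 (3.42 ± 0.55, adjusted p = 4.47e-05). Without array 4 its difference was 2.70. Pde6a, the catalytic alpha subunit that pairs with the product of Pde6b, had values of 10.01, 11.07, 8.94 and 10.97 at rd1 P8, against 7.59, 7.17, 6.60 and 6.09 at rd1 P6. It rose 10.4-fold (3.38 ± 0.37, adjusted p = 2.35e-07), and by 3.14 without array 4. Array 3 was the lowest P8 array for each of these genes and still lay above every P6 array.

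Pde6b itself, which carries the mutation, had values of 11.11, 11.45, 10.96 and 12.04 at rd1 P8, against 10.52, 10.92, 10.68 and 10.65 at rd1 P6. Its difference of 0.70 ± 0.49 did not pass the test (adjusted p = 0.399), although every value at P8 was above every value at P6. An exact two-sided test over all 70 permutations of the array labels gave p = 0.0286 for this gene, the smallest it allows. With the 8 arrays of P2 left out of the fit, Pde6b was called (adjusted p = 0.0229). The inhibitory gamma subunit, Pde6g, rose by 0.99 ± 0.20 (adjusted p = 0.000574), with values of 13.44, 13.83, 13.26 and 14.49 at rd1 P8 and of 12.65, 12.96, 12.82 and 12.63 at rd1 P6. Aipl1, the chaperone that phosphodiesterase needs to fold, rose by 1.06 ± 0.21 (adjusted p = 0.000724) and by 0.80 without array 4.

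Most of the genes named for the other steps of the light response moved the same way by smaller amounts, and Gnb1 did not. Gngt1, which pairs with Gnat1, rose by 1.08 ± 0.22 (adjusted p = 0.000901). Gnb1, the transducin beta subunit, had values of 11.29, 11.43, 11.34 and 9.02 at rd1 P8 and of 9.98, 12.45, 12.76 and 13.08 at rd1 P6. Its difference of −1.29, the lowest of the rod list, did not pass the test (adjusted p = 0.101). The Gnb1 values at P6 differed as much between arrays as between ages. Both cGMP-gated channel subunits rose, Cnga1 by 1.40 ± 0.30 (adjusted p = 0.00136) and Cngb1 by 0.73 ± 0.24 (adjusted p = 0.0318), and Cngb1 was not called without array 4 (adjusted p = 0.077). Gucy2e, the guanylate cyclase that restores cGMP, had values of 4.88, 5.42, 4.08 and 4.94 at rd1 P8 and of 3.09, 2.85, 2.91 and 2.97 at rd1 P6, low values at or near the background range that nevertheless did not overlap (1.87 ± 0.18, adjusted p = 4.84e-08).

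Other rod genes rose too, among them Grk1 and Sag, which take part in switching the response off. Grk1, a G-protein-coupled receptor kinase of photoreceptors, rose by 1.56 ± 0.21 (adjusted p = 4.11e-06) with values of 7.34, 8.10, 7.25 and 7.27 at rd1 P8 and of 5.74, 6.41, 6.15 and 5.42 at rd1 P6. Rcvrn, the calcium sensor recoverin, rose by 1.57 ± 0.31 (adjusted p = 0.000569), and Sag, rod arrestin, was already near the top of the scale at P6 and rose by 0.58 ± 0.13 (adjusted p = 0.00174), 1.5-fold. Impg1, a proteoglycan of the matrix around the outer segments, had values of 8.01, 8.37, 7.25 and 8.46 at rd1 P8, against 5.90, 6.49, 5.51 and 5.36 at rd1 P6 (2.21 ± 0.32, adjusted p = 1.08e-05). The member that fell was Rpgrip1, a protein of the connecting cilium, with values of 11.97, 12.11, 11.93 and 12.73 at rd1 P8 and of 12.42, 12.68, 12.68 and 12.78 at rd1 P6. Its difference was −0.46 ± 0.15 (adjusted p = 0.0348), and −0.64 without array 4, on which it was close to its P6 level.

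**Figure D1:**
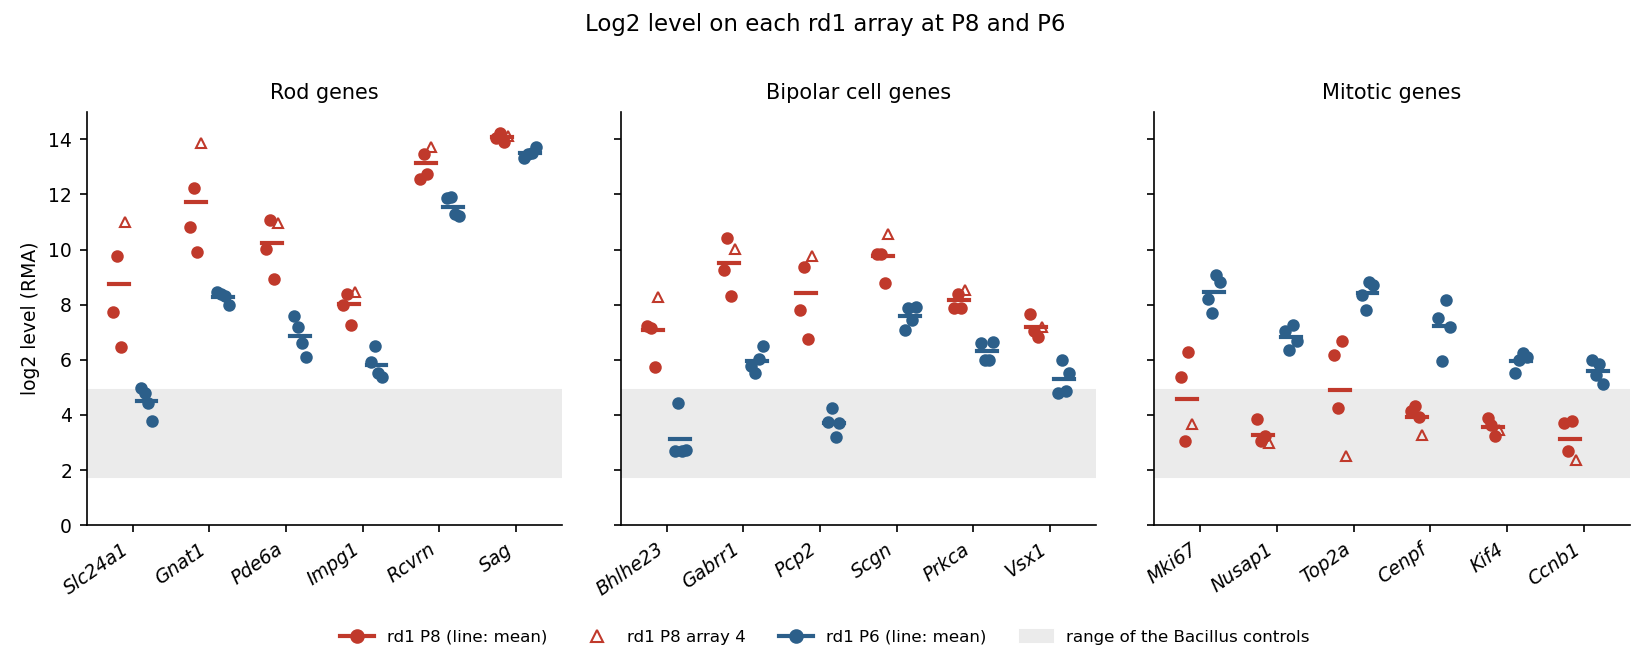
Log2 level (RMA, vertical axis) of 6 rod, 6 bipolar and 6 mitotic genes on each rd1 P8 array (left of each pair) and each rd1 P6 array (right), with a bar at each group mean and rd1 P8 array 4 as an open triangle (Pcp2 by its dimmer probe set). The grey zone is the range of the Bacillus control probe sets, 1.75 to 4.89, and for Mki67, Nusap1, Top2a and the bipolar gene Bhlhe23 the 2 ages do not overlap.

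The transcription factors that set photoreceptor fate did not follow the genes of the outer segment. Of 9 measured members, 1 rose and 3 fell, with a median of −0.25, and 1 rose and 3 fell without array 4 (median −0.21). When each gene was read by the mean over all its probe sets, the median was −0.01. Nrl, which directs rod over cone fate, had values of 13.29, 13.36, 13.17 and 13.37 at rd1 P8 and of 13.15, 13.37, 13.35 and 13.38 at rd1 P6 (adjusted p = 0.971), and Crx differed by −0.23 ± 0.14 (adjusted p = 0.289). Otx2, needed earlier to make photoreceptors, fell by 0.78 ± 0.10 (adjusted p = 2.68e-06), with values of 12.73, 12.61, 12.75 and 12.14 at rd1 P8 and of 13.55, 13.41, 13.17 and 13.23 at rd1 P6. Prdm1, which keeps photoreceptor precursors from becoming bipolar cells, fell by 1.15 ± 0.19 (adjusted p = 8.35e-05), and Rorb fell by 0.87 ± 0.21 (adjusted p = 0.00355). Esrrb, a nuclear receptor of rods, rose: its values were 6.88, 7.96, 6.55 and 8.99 at rd1 P8, against 5.20, 5.55, 4.63 and 5.31 at rd1 P6 (2.42 ± 0.37, adjusted p = 2.67e-05).

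Cone genes were mixed, with 3 of 11 measured members higher, 2 lower and a median of 0.08, and as many each way without array 4 (median 0.21). Opn1mw, the medium-wavelength opsin, had values of 4.74, 7.47, 3.15 and 9.15 at rd1 P8, against 3.16, 2.94, 3.08 and 3.12 at rd1 P6. All P6 values were within the background range, and P8 array 3 was still there, so the groups overlapped although the gene was called (3.05 ± 0.66, adjusted p = 0.00127). Pde6c, the cone phosphodiesterase, rose by 0.71 ± 0.17 (adjusted p = 0.00297). Rxrg, a nuclear receptor of young cones, fell by 0.78 ± 0.16 (adjusted p = 0.000772), and Ccdc136 fell by 1.30 ± 0.13 (adjusted p = 4.84e-08).

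Of the 20 measured members of the ribbon synapse list, 8 rose and 2 fell, with a median of 0.31. The list also holds synaptic genes that are not particular to ribbon synapses, among them Syn1, so its count is not one of ribbon genes alone. Without array 4, 5 rose and 2 fell and the median was 0.16. Without rd1 P6 arrays 3 and 4, 3 rose (Cabp4, Syn1 and Dlg4) and 1 fell. Cabp4, the calcium-binding protein that tunes the calcium channel of the photoreceptor terminal, had values of 9.70, 10.24, 8.75 and 11.52 at rd1 P8, against 6.78, 8.24, 6.74 and 6.72 at rd1 P6 (2.93 ± 0.38, adjusted p = 2.68e-06). Syn1, a synapsin of conventional synapses, rose by 1.21 ± 0.16 (adjusted p = 4.98e-06), Syt1, the calcium sensor of vesicle release, by 1.5 ± 0.43 (adjusted p = 0.0143) and Dlg4, the scaffold PSD-95, by 0.97 ± 0.20 (adjusted p = 0.00107). Among the structural proteins of the ribbon and its active zone, Pclo fell by 0.76 ± 0.15 (adjusted p = 0.000384), while Bsn differed by 0.02 ± 0.14 (adjusted p = 0.961) and Ctbp2, whose locus encodes the ribbon protein RIBEYE, by 0.15 ± 0.10 (adjusted p = 0.382).

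Bipolar cell genes rose together, and their count did not depend on array 4. Bipolar cells carry the signal from photoreceptors to the inner retina. Of 21 measured members 14 rose and 0 fell, both with all arrays and without array 4, and the median was 1.15 with all arrays and 1.22 without array 4. The mean level over the list was 8.09, 8.39, 7.81 and 8.89 on the rd1 P8 arrays, against 6.78, 6.98, 6.74 and 6.92 on the rd1 P6 arrays. Age groups did not overlap for any of the 14.

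Bhlhe23, a transcription factor needed for rod bipolar cells, had values of 7.23, 7.15, 5.75 and 8.28 at rd1 P8, against 2.71, 4.44, 2.70 and 2.72 at rd1 P6, all 4 of them within the background range (3.96 ± 0.42, adjusted p = 1.42e-07). Gabrr1, a subunit of the GABA-C receptor on bipolar terminals, had values of 9.27, 10.44, 8.33 and 10.01 at rd1 P8, against 5.78, 5.53, 6.05 and 6.49 at rd1 P6, an 11.7-fold rise (3.55 ± 0.37, adjusted p = 1.16e-07). Prkca, the protein kinase C of rod bipolar cells, had values of 7.89, 8.39, 7.89 and 8.53 at rd1 P8, against 6.61, 6.01, 5.99 and 6.64 at rd1 P6 (1.86 ± 0.22, adjusted p = 9.43e-07). In each of these genes the lowest P8 value was above the highest P6 value. Pcp2, a regulator of G-protein signalling in ON bipolar cells, has several probe sets that differed in size of change. By the brightest it rose by 2.76 ± 0.32 (adjusted p = 5.86e-07), with values of 10.42, 11.68, 9.53 and 11.81 at rd1 P8 and of 7.81, 8.16, 8.10 and 8.32 at rd1 P6, and by a dimmer probe set, the largest rise of any named gene, by 4.70 ± 0.46 (adjusted p = 4.84e-08).

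Other bipolar members that rose were a transcription factor, calcium-binding proteins and parts of the G-protein cascade. Isl1, a transcription factor of ON bipolar and other neurons, rose by 1.34 ± 0.16 (adjusted p = 1.1e-06). Scgn and Cabp5, calcium-binding proteins of cone and rod bipolar types, rose by 2.18 ± 0.34 (adjusted p = 2.97e-05) and by 1.60 ± 0.26 (adjusted p = 6.68e-05). Rgs11 and Gnb5, partners in the complex that ends the light response of ON bipolar cells, rose by 1.15 ± 0.22 (adjusted p = 0.000436) and by 1.08 ± 0.18 (adjusted p = 9.42e-05). Trpm1, the channel of that cascade, was not called, with values of 5.57, 6.20, 6.38 and 6.53 at rd1 P8 and of 5.97, 5.58, 5.79 and 5.72 at rd1 P6 (adjusted p = 0.164).

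Mueller glia are the radial glia of the retina. Of 27 measured members of their list, 7 rose and 2 fell, with a median of 0.17, and 5 rose and 3 fell without array 4, while 4 rose without rd1 P6 arrays 3 and 4. Abca8a, a lipid transporter, had values of 6.67, 8.11, 4.98 and 9.74 at rd1 P8, against 3.22, 3.33, 3.29 and 3.36 at rd1 P6 (4.08 ± 0.55, adjusted p = 4.79e-06). Its P6 values were alike and within the background range, and all P8 values were higher. Car2, carbonic anhydrase 2, rose by 0.55 ± 0.09 (adjusted p = 8.88e-05). Glul, glutamine synthetase, rose by 0.74 ± 0.23 (adjusted p = 0.0202) but was not called without array 4 (adjusted p = 0.108). Rlbp1, which binds retinaldehyde, differed by 0.11 ± 0.18 (adjusted p = 0.802). Fabp7, a fatty acid binding protein of immature glia, fell by 1.16 ± 0.26 (adjusted p = 0.00215), with values of 12.54, 11.70, 12.98 and 11.01 at rd1 P8 and of 13.06, 13.13, 13.39 and 13.29 at rd1 P6.

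Inner retinal neurons, born earlier, moved both ways. Of 21 measured amacrine and horizontal cell genes 6 rose and 4 fell (median 0.01), without array 4, 5 rose and 3 fell (median −0.01), and without rd1 P6 arrays 3 and 4, 3 rose and 2 fell. Gjd2, connexin 36 of the electrical synapses between AII amacrine and bipolar cells, had values of 8.39, 8.99, 8.19 and 8.61 at rd1 P8, against 6.39, 6.57, 6.16 and 5.74 at rd1 P6 (2.33 ± 0.22, adjusted p = 3.58e-08). Calb1, calbindin, rose by 1.67 ± 0.24 (adjusted p = 9.5e-06), and Gad1, which makes GABA, by 0.91 ± 0.19 (adjusted p = 0.000822). The developmental factors Tfap2b and Ebf3 fell, by 1.06 ± 0.20 (adjusted p = 0.000342) and by 0.63 ± 0.17 (adjusted p = 0.0091). Of 17 ganglion cell genes 6 rose and 2 fell (median 0.19), and 4 rose and 1 fell without array 4 (median 0.16). Among the neurofilaments, Nefl rose by 0.67 ± 0.12 (adjusted p = 0.000227) and Nefh by 1.26 ± 0.31 (adjusted p = 0.00376), while the RNA-binding protein Elavl2 fell by 0.86 ± 0.15 (adjusted p = 0.000209).

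Genes of mitosis had the lowest median of the lists read. Of 49 measured members, 36 fell (background 9.02%), 1 rose and 12 did not pass, with a median of −1.49. Without array 4, 33 fell and 1 rose (median −1.42). When each gene was read by the mean over all its probe sets, the median was −1.04. The mean level over the list was 5.71, 5.22, 5.82 and 5.15 on the rd1 P8 arrays, against 6.92, 6.49, 7.24 and 6.96 on the rd1 P6 arrays. P8 arrays 2 and 4, the highest for rod genes, were the lowest for mitotic genes.

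Mki67, which coats mitotic chromosomes, had values of 5.37, 3.05, 6.29 and 3.66 at rd1 P8, against 8.21, 7.71, 9.10 and 8.84 at rd1 P6 (−3.87 ± 0.46, adjusted p = 8.23e-07). Arrays 2 and 4 had reached the background range and arrays 1 and 3 had not. Nusap1, a spindle protein, had values of 3.87, 3.05, 3.22 and 2.99 at rd1 P8, all within the background range, against 7.05, 6.37, 7.26 and 6.69 at rd1 P6 (−3.56 ± 0.31, adjusted p = 1.21e-08). Top2a, which untangles DNA before chromosomes separate, had values of 6.16, 4.25, 6.69 and 2.52 at rd1 P8, against 8.35, 7.81, 8.82 and 8.71 at rd1 P6 (−3.52 ± 0.54, adjusted p = 2.98e-05). Cenpf, a kinetochore protein, fell by 3.31 ± 0.35 (adjusted p = 1.5e-07), and Kif4, a chromosome-bound motor, by 2.42 ± 0.26 (adjusted p = 2.02e-07). For all of these the 2 ages did not overlap.

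The kinase and cyclin that drive entry into mitosis also fell. Cdk1 had values of 6.60, 5.03, 7.08 and 5.62 at rd1 P8, against 8.06, 7.72, 8.99 and 8.62 at rd1 P6 (−2.26 ± 0.34, adjusted p = 2.34e-05), and its partner Ccnb1 had values of 3.72, 2.71, 3.78 and 2.36 at rd1 P8, against 6.01, 5.44, 5.85 and 5.11 at rd1 P6 (−2.46 ± 0.34, adjusted p = 6.1e-06). Cdc20, which starts the destruction of the cyclin at anaphase, fell by 1.94 ± 0.27 (adjusted p = 7.93e-06). The member that rose was Fzr1, the activator that keeps the same ubiquitin ligase on in cells at rest, with values of 9.01, 8.79, 8.91 and 9.21 at rd1 P8 and of 8.48, 8.31, 8.06 and 7.85 at rd1 P6 (0.81 ± 0.14, adjusted p = 0.000137). Plk1 and Aurkb, mitotic kinases read by probe sets of low signal at both ages, differed by −0.16 ± 0.27 (adjusted p = 0.811) and by −0.53 ± 0.36 (adjusted p = 0.386).

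Genes of DNA replication had smaller differences. Of 32 measured members 10 fell and 0 rose (median −0.32), and 4 fell without array 4, as many as without rd1 P6 arrays 3 and 4. Rrm2, the inducible subunit that makes deoxynucleotides, had values of 6.14, 4.96, 6.37 and 3.64 at rd1 P8, against 8.05, 6.84, 8.28 and 8.17 at rd1 P6 (−2.55 ± 0.44, adjusted p = 0.000118). Mcm7, of the replicative helicase, fell by 1.17 ± 0.20 (adjusted p = 0.000102). Pcna, the sliding clamp, differed by 0.01 ± 0.13 (adjusted p = 0.981), with values of 11.87, 11.67, 11.93 and 12.22 at rd1 P8 and of 11.78, 11.90, 12.02 and 11.95 at rd1 P6.

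Of 26 measured genes of progenitors and of the proneural programme, 12 fell and 0 rose (median −0.59), and 8 fell without array 4. When each gene was read by the mean over all its probe sets, the median was −0.35. The Notch pathway holds progenitors undifferentiated, and its receptor Notch1 fell by 1.42 ± 0.21 (adjusted p = 1.51e-05), with values of 9.48, 8.97, 9.44 and 8.24 at rd1 P8 and of 10.67, 10.43, 10.27 and 10.44 at rd1 P6. Its ligands Dll1 and Dll3 fell by 1.15 ± 0.21 (adjusted p = 0.000266) and by 1.33 ± 0.27 (adjusted p = 0.000822). Ccnd1, the main D-type cyclin of retinal progenitors, had values of 9.82, 9.10, 10.10 and 8.13 at rd1 P8, against 11.07, 10.72, 10.88 and 10.58 at rd1 P6 (−1.53 ± 0.32, adjusted p = 0.000949). Gadd45g, expressed as cells leave the cycle, fell by 1.62 ± 0.30 (adjusted p = 0.000261), Btg2 by 1.07 ± 0.17 (adjusted p = 4.85e-05) and Six3 by 1.00 ± 0.15 (adjusted p = 3.05e-05). Pax6, kept in amacrine and ganglion cells after progenitors are gone, differed by −0.14 ± 0.17 (adjusted p = 0.705).

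**Figure D2:**
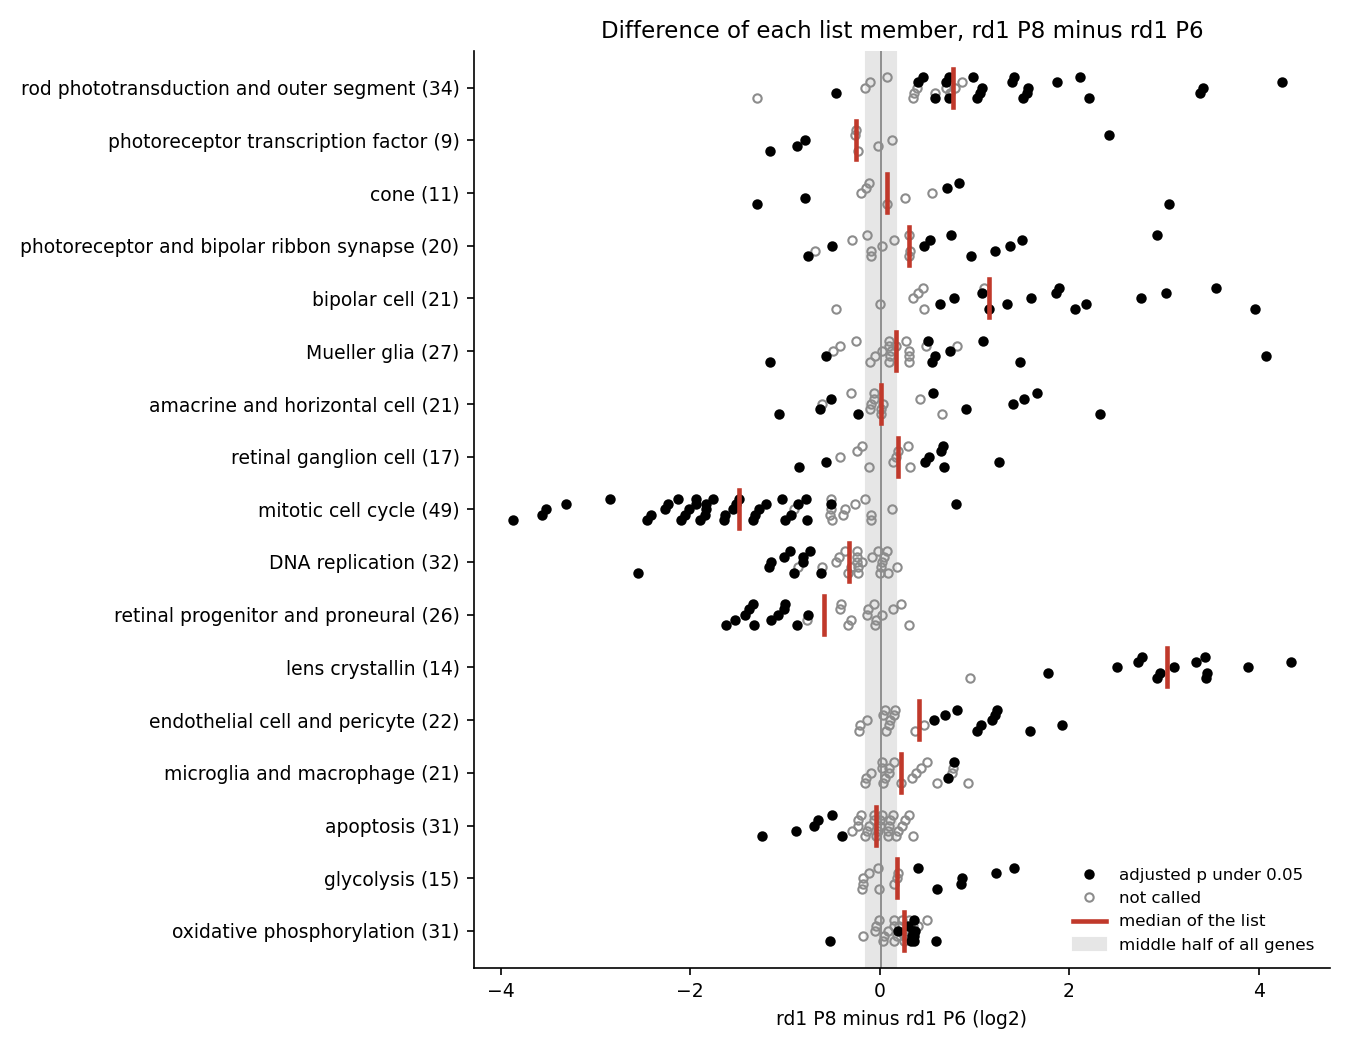
Differences of the measured members of 17 gene lists, rd1 P8 minus rd1 P6 on the log2 scale (horizontal axis), 1 point per gene by its brightest probe set, filled where the adjusted p was under 0.05, with a red bar at each median. The grey band is the interquartile range of all 12403 genes, −0.14 to 0.18, and the lists of lens crystallins (median 3.03), bipolar cell genes (1.15) and mitotic genes (−1.49) lie farthest from it.

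Several of the largest falls were in probe sets of genes that are not cell cycle genes, and for some the probe sets of the gene did not all agree. The probe set of Arhgap31, a GTPase-activating protein, had values of 5.74, 5.32, 5.38 and 4.36 at rd1 P8, against 8.17, 8.09, 8.51 and 7.91 at rd1 P6 (−2.97 ± 0.21, adjusted p = 3.26e-10), while a dimmer probe set of the same gene was called in the opposite direction (1.24 ± 0.34, adjusted p = 0.0107). For Ndel1, a dynein regulator, one probe set fell by 3.02 ± 0.33 (adjusted p = 2.39e-07), and its brightest differed by 0.08 ± 0.12 (adjusted p = 0.771). For the splicing factor Rbm39 one fell by 3.48 ± 0.42 (adjusted p = 9.43e-07), and the brightest differed by −0.07 ± 0.13 (adjusted p = 0.823). Other Rbm39 probe sets were called lower too, with differences of −2.32, −1.93, −1.77 and −1.68, while the rest were not called. For the RNA helicase Ddx6 the pair was −2.77 ± 0.36 (adjusted p = 2.5e-06) and −0.36 ± 0.20 (adjusted p = 0.253). Another Ddx6 probe set differed by −2.31 ± 0.61 (adjusted p = 0.00735). The probe sets of each of these genes therefore disagree, and a fall in some of them cannot be read as a fall of the whole gene.

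Zbtb20 and Nfib, transcription factors of late progenitors and glia in other parts of the nervous system, fell by more than 1 probe set. Zbtb20 had values of 4.79, 5.02, 3.04 and 6.93 at rd1 P8, against 8.82, 8.50, 7.89 and 8.31 at rd1 P6 (−3.43 ± 0.46, adjusted p = 4.91e-06), and fell by 1.17 ± 0.20 by its brightest probe set (adjusted p = 0.000138). Nfib had values of 6.34, 5.58, 6.23 and 3.07 at rd1 P8, against 8.35, 8.35, 8.46 and 8.14 at rd1 P6 (−3.02 ± 0.39, adjusted p = 2.61e-06), and fell by 1.17 ± 0.12 by its brightest (adjusted p = 1.5e-07). Malat1, a long nuclear RNA, had values of 8.14, 8.24, 8.77 and 4.49 at rd1 P8, against 9.08, 9.34, 10.86 and 11.55 at rd1 P6, with P6 arrays 3 and 4, those of the highest 18S signal, the highest (−2.80 ± 0.65, adjusted p = 0.00263). Without P8 array 4, its lowest, the difference was −1.82 (adjusted p = 0.016). Its brightest probe set was not called (adjusted p = 0.381).

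Lens crystallin genes had the highest median of the lists read, and the count of calls depended on array 4. Of 14 measured members 13 rose with all arrays (median 3.03), 5 rose without array 4 (median 2.14), 7 rose without rd1 P6 arrays 3 and 4, and 3 rose without all of these. The summed log2 level of the list was 108.2, 106.3, 107.0 and 161.8 on the rd1 P8 arrays, against 76.7, 77.5, 68.7 and 93.7 on the rd1 P6 arrays. P8 arrays 1 to 3 were thus alike and above all P6 arrays, and array 4 stood far above them. For 11 members the ages did not overlap.

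Cryaa, alpha A-crystallin, had values of 9.50, 9.52, 9.44 and 13.44 at rd1 P8, against 7.18, 6.93, 5.80 and 8.16 at rd1 P6. Its difference of 3.46 ± 1.05 passed the test (adjusted p = 0.019), and without array 4 the difference of 2.47 did not (adjusted p = 0.115). Crygs, gamma S-crystallin, had values of 8.47, 8.48, 7.66 and 12.81 at rd1 P8, against 5.06, 5.03, 4.00 and 5.96 at rd1 P6 (4.34 ± 0.91, adjusted p = 0.000937), and without array 4 it rose by 3.19 (adjusted p = 0.00671). Cryba4, Cryba2, Cryab and Crybb1 were the others that rose without array 4, by 2.72 (adjusted p = 0.00716), 2.16 (adjusted p = 0.0272), 2.12 (adjusted p = 0.0108) and 2.05 (adjusted p = 0.0315). Crygn, expressed at or below the background range on 7 of the 8 arrays, had values of 2.18, 2.30, 2.41 and 6.00 at rd1 P8 and of 2.19, 2.13, 2.24 and 2.52 at rd1 P6, so that array 4 was its only array above background. The gamma crystallins are close in sequence, and their probe sets may respond to one another.

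Among the other lens fibre genes, Mip and Bfsp1 separated array 4 from the rest. The group means of 6 of the 8 measured members were within the background range at both ages, and the list median was 0.04 (0.05 without array 4). Of 8 measured members 2 rose, Bfsp1 and Prox1, and without array 4 the one that rose was Prox1, which retinal horizontal and amacrine cells also express. Neither was called without rd1 P6 arrays 3 and 4. Mip, the main membrane channel of lens fibres, was between 2.96 and 3.66 on rd1 P8 arrays 1 to 3 and at 6.69 on array 4, and between 2.66 and 3.34 on the rd1 P6 arrays, and Bfsp1, a lens filament protein, had values of 5.81, 6.10, 5.86 and 7.81 at rd1 P8 and of 5.36, 5.37, 5.68 and 5.74 at rd1 P6. On P8 arrays 1 to 3 Mip was in the background range while Cryaa was above 9. Array 4 therefore carried lens transcripts at levels not seen on the other 7 rd1 arrays of these ages, and the share of lens tissue in the crystallin levels of arrays 1 to 3 was not tested.

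**Figure D3:**
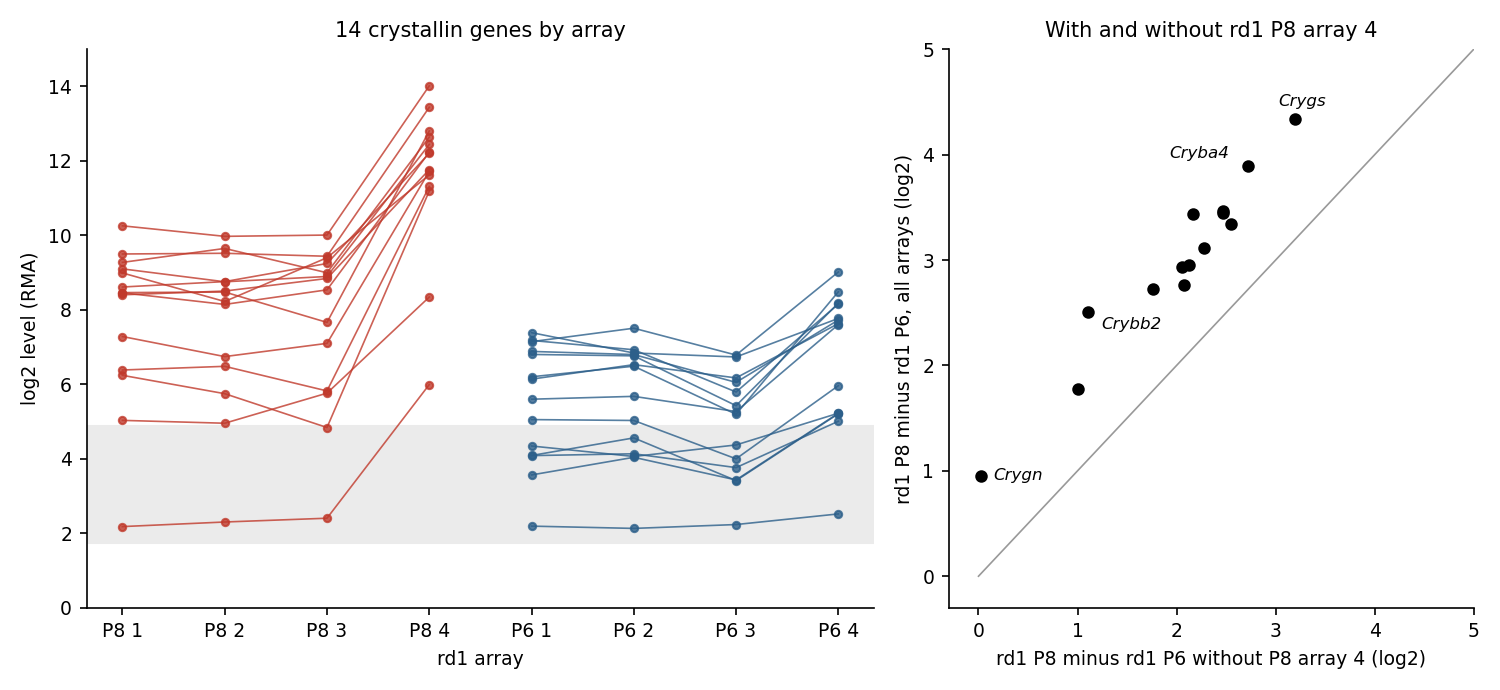
Left, log2 level (RMA) of the 14 measured crystallin genes on the 4 rd1 P8 arrays and the 4 rd1 P6 arrays, 1 line per gene, with the grey zone marking the range of the Bacillus controls. Right, each gene's difference, rd1 P8 minus rd1 P6, with all arrays and without rd1 P8 array 4: the median is 3.03 with all arrays and 2.14 without array 4.

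Markers of tissues next to the retina were checked in the same way. Of 15 measured pigment epithelium genes 0 were called with all arrays, 1 fell without rd1 P8 array 4 and 1 rose without rd1 P6 arrays 3 and 4. Among them, Rpe65, the retinoid isomerase that defines this tissue, had values of 3.63, 4.11, 4.13 and 6.59 at rd1 P8 and of 3.53, 3.57, 3.67 and 4.14 at rd1 P6, so that it too was above the background range on array 4 alone. The summed level of the list was 84.4, 86.3, 85.2 and 95.4 at rd1 P8 and 85.1, 80.9, 87.2 and 86.7 at rd1 P6. None of 8 red blood cell genes was called, with or without array 4, and 1 of 20 mesenchymal, scleral and muscle genes and 1 of 10 astrocyte and optic nerve genes rose, and without rd1 P6 arrays 3 and 4 the mesenchymal list had 0. Without array 4, 2 of the mesenchymal and 1 of the astrocyte genes rose.

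Of 22 measured genes of endothelial cells and pericytes, 10 rose and 0 fell (median 0.42), and without array 4, 8 rose and 1 fell (median 0.17), while 6 rose without rd1 P6 arrays 3 and 4. The summed level was 131.4, 131.8, 127.0 and 145.1 at rd1 P8 and 121.3, 119.5, 122.5 and 122.9 at rd1 P6. Tie1, a receptor of the angiopoietin pathway, had values of 4.53, 4.96, 4.12 and 5.98 at rd1 P8, against 2.73, 2.86, 3.31 and 2.99 at rd1 P6 (1.93 ± 0.27, adjusted p = 9.58e-06). Cldn5, of endothelial tight junctions, rose by 1.02 ± 0.24 (adjusted p = 0.00329), and Col4a2, of the vessel basement membrane, by 1.59 ± 0.29 (adjusted p = 0.000265). At these ages vessels are still growing into the mouse retina. Of 21 microglia and macrophage genes 2 rose, C1qa by 0.72 ± 0.19 (adjusted p = 0.00599) and Ctss by 0.78 ± 0.20 (adjusted p = 0.00677), and 0 fell, while 3 rose without array 4 and 1 rose without rd1 P6 arrays 3 and 4. Csf1r, the receptor microglia need to survive, differed by 0.61 ± 0.22 (adjusted p = 0.0519).

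No gene of the apoptosis list was called higher at P8 with all arrays. Of 31 measured members 6 fell, 0 rose and the median was −0.04, as many fell and rose without array 4 (median −0.02), and without rd1 P6 arrays 3 and 4, 5 fell and 1 rose. Bcl2l11, the pro-apoptotic protein Bim, had values of 7.16, 7.10, 7.10 and 6.47 at rd1 P8, against 8.18, 7.96, 8.31 and 8.35 at rd1 P6 (−1.24 ± 0.18, adjusted p = 1.2e-05). Casp6 fell by 0.88 ± 0.16 (adjusted p = 0.000174) and Casp2 by 0.69 ± 0.14 (adjusted p = 0.000849). Apaf1, the adaptor that activates caspase 9, fell by 0.65 ± 0.16 (adjusted p = 0.0037), and the inhibitors of apoptosis Xiap and Birc2 fell by 0.50 ± 0.11 (adjusted p = 0.00146) and by 0.40 ± 0.11 (adjusted p = 0.0129). The members that fell thus include activators and inhibitors of cell death.

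Of 19 immediate early genes 4 rose and 1 fell, 3 rose and 0 fell without array 4, and 0 rose and 2 fell without rd1 P6 arrays 3 and 4. Fos had values of 7.42, 8.64, 6.57 and 9.72 at rd1 P8, against 6.90, 6.19, 4.68 and 5.76 at rd1 P6, so the groups overlapped at P8 array 3 (2.21 ± 0.47, adjusted p = 0.00106). Egr1 rose by 1.25 ± 0.40 (adjusted p = 0.0272) but not without array 4 (adjusted p = 0.164). Both were highest on arrays 4 and 2, the arrays with the highest rod levels.

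Genes of energy metabolism were read in the same way. Of 15 glycolytic genes 6 rose and 0 fell (median 0.18), and 5 rose and 0 fell without array 4 (median 0.17). Hk1, the hexokinase of neurons, had values of 11.90, 12.004, 11.67 and 12.70 at rd1 P8, against 11.13, 10.99, 10.56 and 10.69 at rd1 P6 (1.23 ± 0.17, adjusted p = 1.03e-05). Aldoc and Aldoa, aldolases, rose by 1.41 ± 0.21 (adjusted p = 1.91e-05) and by 0.60 ± 0.10 (adjusted p = 4.64e-05). Of 31 genes of oxidative phosphorylation 10 rose and 1 fell (median 0.25), with differences between −0.52 and 0.59, and 6 rose and 1 fell without array 4. Of 22 cytosolic ribosomal protein genes 1 rose and 4 fell (median −0.10), 1 rose and 1 fell without array 4, and 0 rose and 2 fell without rd1 P6 arrays 3 and 4. Of 18 cholesterol synthesis genes 3 rose and 2 fell, 1 rose and 1 fell without array 4, and 0 rose and 1 fell without rd1 P6 arrays 3 and 4.

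The study singled out Rabac1, which encodes the Rab acceptor PRA1, a regulator of vesicle traffic. It reported lower Rabac1 in rd1 than in wt at each age it examined. The comparison here is between ages within rd1 and does not address that difference. Rabac1 values were 9.32, 9.21, 8.89 and 9.08 at rd1 P8 and 8.75, 9.10, 9.18 and 8.47 at rd1 P6. These overlapped (0.25 ± 0.49, adjusted p = 0.844). Of 36 measured Rab GTPases and regulators 8 rose and 3 fell (median 0.10), 5 rose and 4 fell without array 4, and 1 rose and 3 fell without rd1 P6 arrays 3 and 4. Rab3a, of synaptic vesicles, rose by 0.93 ± 0.17 (adjusted p = 0.000281), Rab8b fell by 0.91 ± 0.14 (adjusted p = 2.28e-05) and Rab22a fell by 0.70 ± 0.11 (adjusted p = 3.84e-05). Outside the rod cascade, 21 genes of cyclic nucleotide and calcium signalling were read, of which 5 rose and 2 fell, 4 rose and 2 fell without array 4, and 3 rose and 3 fell without rd1 P6 arrays 3 and 4. Gucy1a1, a subunit of the soluble guanylate cyclase that nitric oxide activates, had values of 9.21, 9.38, 8.79 and 10.16 at rd1 P8, against 7.83, 7.64, 6.69 and 5.84 at rd1 P6 (2.38 ± 0.39, adjusted p = 6.5e-05). Prkg1, a kinase that cGMP activates, had values of 3.92, 4.89, 3.98 and 4.14 at rd1 P8, against 6.12, 5.64, 6.09 and 6.61 at rd1 P6 (−1.88 ± 0.26, adjusted p = 7.86e-06).

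The same 2 days were then followed in wt retina. There, 3524 of 22626 probe sets (15.6%) were called, 1804 higher (7.97%) and 1720 lower (7.6%). Over the rod list the median change was 0.77 in rd1 and 0.62 in wt, over the bipolar list 1.15 in rd1 and 0.71 in wt, and over the mitotic list −1.49 in rd1 and −0.60 in wt. Without rd1 P8 array 4 the rd1 medians were 0.66 for the rod list, 1.22 for the bipolar list and −1.42 for the mitotic list, so the rod median was then close to that of wt. The change in rd1 minus the change in wt was above 0 for 26 of the 34 rod genes and for 18 of the 21 bipolar genes. It was below 0 for 46 of the 49 mitotic genes, and without rd1 P8 array 4 the counts were 25, 15 and 45. Over all genes the median of that difference was 0.04, against 0.25 for the rod list, 0.54 for the bipolar list and −0.63 for the mitotic list. The shares of all genes above and below 0 were not worked out. No member of the rod or mitotic list was called in the test of that difference, which called 5 of the 12403 genes (0.0403%).

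The levels at each age show where these changes started. The rd1 P8 mean was below the wt P8 mean for 31 of 34 rod genes, and the rd1 P6 mean was below the wt P6 mean for 33. For 27 rod genes the rd1 P8 mean lay between the wt P6 and wt P8 means. Without rd1 P8 array 4, 33 rod genes were below the wt P8 mean and 27 lay between the wt means. The mitotic list ran the other way, with the rd1 P8 mean below the wt P8 mean for 9 of 49 genes (8 without array 4). The rd1 P6 mean was below the wt P6 mean for 1. For these counts of levels, and those of the crystallins below, the shares over all genes were not worked out. The fall of mitotic genes in rd1 was already under way before P6: from P4 to P6 the rd1 median was −1.89. Over the same days the rod list had an rd1 median of 0.95 and the crystallins one of 1.03.

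Crystallins varied between arrays of wt retina as well. The mean log2 level over the list was 5.43, 9.40, 7.35 and 8.81 on the wt P8 arrays and 7.52, 7.97, 6.26 and 6.62 on the wt P6 arrays, and the median change in wt was 0.56. For all 14 crystallins the rd1 P6 mean was below the wt P6 mean, and for 0 of them was the rd1 P8 mean below the wt P8 mean with all arrays, against 7 of them without rd1 P8 array 4. No crystallin was called in the test of the change in rd1 minus the change in wt, which does not compare the genotypes at a single age.

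**Figure D4:**
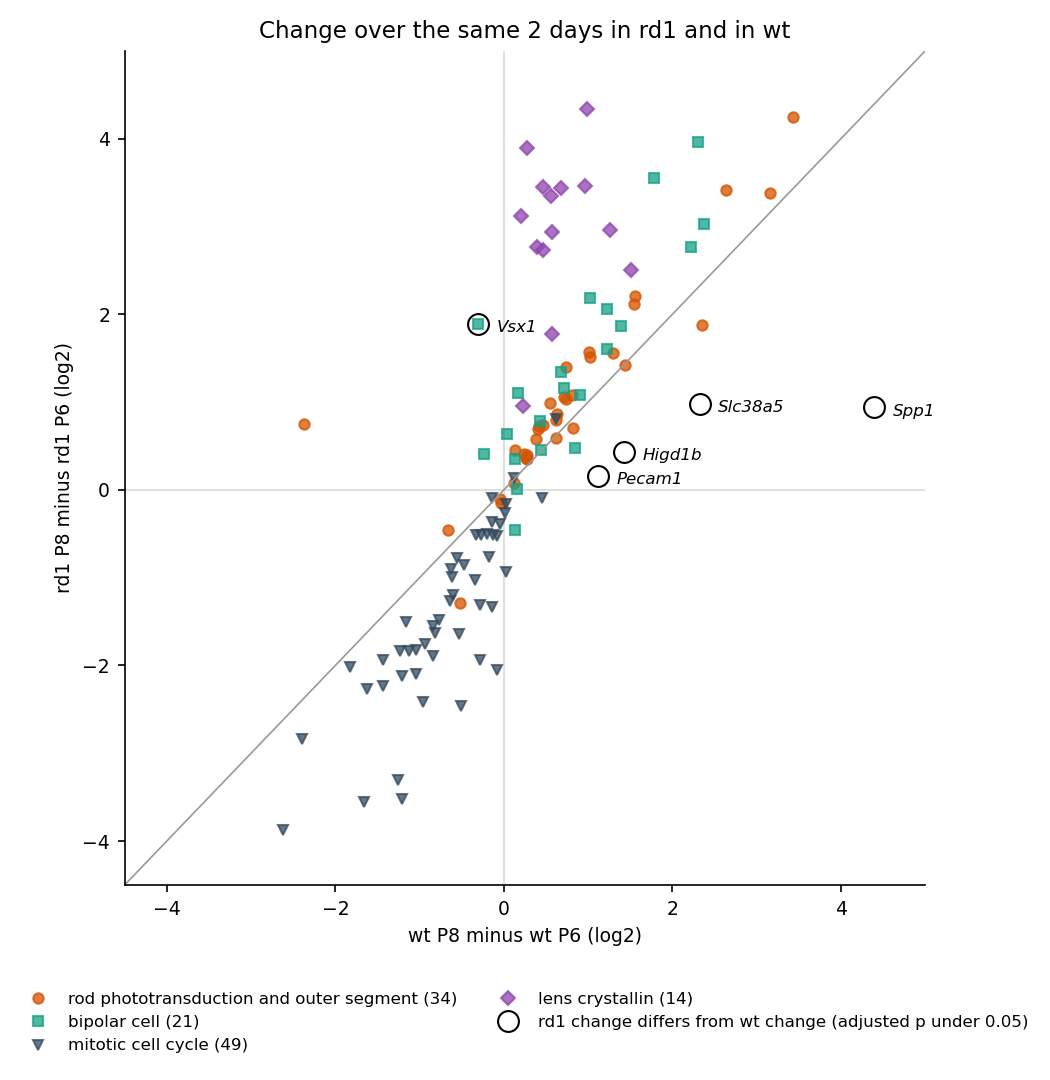
Change from P6 to P8 in rd1 retina (vertical axis) against the change in wt retina (horizontal axis), both P8 minus P6 on the log2 scale, for the members of 4 lists by their brightest probe sets, with the diagonal of equal change. Of the 49 mitotic genes 46 lie below the diagonal and all 14 crystallins lie above it, of which 12 do without rd1 P8 array 4.

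The test of the change in rd1 minus the change in wt called 5 probe sets (0.0221%), and 1055 (4.66%) had an unadjusted p under 0.05. The change in rd1 was above that in wt for 1 (0.00442%) and below it for 4 (0.0177%). Vsx1, a transcription factor of cone bipolar cells, had values of 7.65, 7.06, 6.84 and 7.21 at rd1 P8, against 4.81, 6.01, 4.88 and 5.50 at rd1 P6. In wt the values were 6.73, 6.46, 6.80 and 5.50 at P8 and 6.73, 6.54, 7.11 and 6.33 at P6. The change in rd1 was 1.89 ± 0.24 and in wt −0.30, a difference of 2.19 ± 0.35 (adjusted p = 0.00797). The adjusted p was 0.0155 without array 4, and Vsx1 was not called with the arrays of the contrast alone (adjusted p = 0.472), without the P2 arrays (adjusted p = 0.0671) or without rd1 P6 arrays 3 and 4 (adjusted p = 0.0964). The rd1 levels at P6 were below all wt levels at that age, and at P8 they were above all wt levels. A dimmer probe set of Vsx1 changed by 2.34 in rd1 and by 0.29 in wt, and its difference of 2.05 was not called (adjusted p = 0.524).

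Spp1, osteopontin, had values of 2.64, 6.33, 2.85 and 3.55 at rd1 P8, against 2.62, 3.52, 2.71 and 2.78 at rd1 P6. In wt it had values of 7.54, 7.04, 7.19 and 6.80 at P8 and of 2.46, 2.76, 2.87 and 2.90 at P6. The gene thus left the background range in all 4 wt pools by P8 and in 1 rd1 pool, that of array 2, and the difference in change was −3.45 ± 0.59 (adjusted p = 0.0141). Spp1 was not called with the arrays of the contrast alone (adjusted p = 0.588), without the P2 arrays (adjusted p = 0.137), without rd1 P6 arrays 3 and 4 (adjusted p = 0.0964), without wt P6 array 1 (adjusted p = 0.0557) or without rd1 P8 array 3 (adjusted p = 0.0622). The other 3 probe sets, of Slc38a5, an amino acid transporter, Higd1b and the endothelial adhesion molecule Pecam1, had values within the background range in every group, and are named because so few were called. Their changes in rd1 were 0.98, 0.43 and 0.16, against 2.32, 1.43 and 1.11 in wt, and none of these 3 was called with the arrays of the contrast alone, without the P2 arrays or without rd1 P6 arrays 3 and 4.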

How the data were processed

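The series holds 32 arrays of mouse retina, 4 per genotype and age (8 groups). Total RNA of pooled retinas was extracted with TRIzol and hybridised to MOE430A chips. Per the study's methods the authors made the values with RMA (background correction, quantile normalization, probe set summary), and the deposited values are on the log2 scale. No source used here gives the software version. A deposited table of the authors' own fold changes and p-values between rd1 and wt was not used. Of 22690 probe sets 64 controls were left out, and of the rest 20380 carry 1 gene symbol.

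Group means were fitted with limma 3.58.1 in R 4.3.3 over all 32 arrays (1 mean per group, 24 residual degrees of freedom, intensity trend), with Benjamini-Hochberg adjustment over 22626 probe sets and calls at an adjusted p under 0.05. The contrasts were rd1 P8 minus rd1 P6, wt P8 minus wt P6, and their difference. No source used here says if the pools of a group were separate litters, and the p-values therefore measure how far these samples differ, which may be technical. Precision is limited by the number of arrays. The script was tested on simulated data.

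Named were the 12 largest rises and 12 largest falls among probe sets with 1 symbol and a level of at least 6. Only those called with and without rd1 P8 array 4, with no overlap, were ranked. Also named were the 4 members of each list with the smallest p. So were the probe sets called for the change in rd1 minus the change in wt, and Pde6b, Rabac1, Ptpro, Spp1 and the crystallins. Other list members, among them Cngb1, Nrl, Crx, Cdk1, Ccnb1, Pcna, Sag, Rcvrn and Isl1, were named after their values were seen. Members and lists were chosen with earlier results of these data known. Values of 1 gene were left out of the text. Alternatives covered the arrays fitted, moderation, array weights, normalization, dim probe sets, the test and each array left out.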

Additional observations from a re-analysis of the deposited data

Results flagged for a closer look

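In groups of 4 arrays, the highest or lowest array was compared with the others by its gap to the nearest array over the group's range, at Dixon's 95% critical value. Of 258 groups of named probe sets 22 (8.53%) had an array apart, and 13 of these were on rd1 P8 array 4. At this critical value about 1 in 20 groups is flagged by chance. The share cannot be set against that rate, because the named sets were chosen with earlier results known. They also include the crystallins, which were high together on array 4. At rd1 P8, array 4 stood above the other 3 arrays for the crystallins Crygs (12.81), Cryba4 (11.72), Cryba2 (11.32), Cryab (12.38 by the dimmer probe set), Crybb1 (12.44), Cryaa (13.44) and Crygn (5.996), for the lens filament gene Bfsp1 (7.807), for the pigment epithelium gene Rpe65 (6.59) and for the lysosomal protease Ctss (10.1). It stood below the others for Malat1 (4.491), Bcl2l11 (6.475) and Gnb1 (9.018). Array 2 stood apart at rd1 P8 for Grk1 (8.096, above) and Rxrg (5.964, below).

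At rd1 P6, array 2 stood above the rest for Bhlhe23 (4.439), Cabp4 (8.237) and Spp1 (3.52) and below them for Rrm2 (6.838). Array 1 stood below the rest for Rxrg (7.22), Rab22a (8.43) and Nrl (13.15).

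The change from P6 to P8 differed between rd1 and wt, by the limma test of the difference itself, for Vsx1 (2.19), Spp1 (−3.45), Slc38a5 (−1.34), Higd1b (−0.99) and Pecam1 (−0.96), each in 4 arrays per group. The adjusted p was 0.00797 for Vsx1, 0.0141 for Spp1, 0.0121 for Slc38a5, 0.0221 for Higd1b and 0.00582 for Pecam1.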

How the results depend on the processing

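The count of 4144 probe sets called between rd1 P8 and rd1 P6 became 2432 with the arrays of the contrast alone, 7886 with array quality weights and 347 with limma's treat test against a fold of 1.5. For 3 alternatives chosen after seeing the data, without rd1 P6 arrays 3 and 4 the count was 2471, without these and rd1 P8 array 4 it was 2133, and with the 18S signal as a covariate it was 3477. Leaving out each rd1 array in turn gave 3191 (without P6 array 3) to 4088 (without P6 array 1). The share of calls that were higher was 52.2% as reported, 44.9% with arrays centred on their medians and 42.6% without P6 arrays 3 and 4. Other settings stayed within 1.5 times the count. The cause was not tested.

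For the change in rd1 minus the change in wt, the count of 5 probe sets varied with the setting. It was 0 with the arrays of the contrast alone, 0 without the P2 arrays, 0 with treat and 0 without rd1 P6 arrays 3 and 4. It was 1 without these and rd1 P8 array 4, 1 without the dimmest 30% of probe sets and 572 with array quality weights. With no test, 742 probe sets differed by a fold of 1.5. Leaving out 1 array gave 2 (without wt P6 array 1) to 13 (without rd1 P8 array 1). Vsx1 was called in 24 of 29 settings, and of 28 settings Pecam1 and Slc38a5 were called in 23, Spp1 in 21 and Higd1b in 16.

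With the replicate number as a block 4301 probe sets were called between the ages. Same-numbered arrays of the 2 ages had deviations that correlated at 0.213, 0.0459, 0.216 and 0.0582, of which 2 were under the 0.1 set for every pair, so the numbers were not taken to pair the arrays. All 4 rd1 P8 arrays, but only P6 arrays 1 and 3, correlated best with their own number, which is a hint from the data and not the design. Of 129 named values the block changed the call of Csf1r (adjusted p = 0.0215) and of no other.

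Some genes that were not called changed sign. Nrl was 0.0066 with array weights, 0.1264 with the 18S covariate, 0.0409 without P6 arrays 3 and 4 and 0.0159 without these and P8 array 4, and −0.0675 to 0.0296 with 1 array left out. Rlbp1 was −0.1994, −0.164, −0.2614 and −0.3377 in the same 4 settings, and −0.0165 to 0.2433 with 1 array left out. Pcna was −0.1224 with array weights, −0.0352 with median centring, −0.019 with a further quantile normalization and −0.0164 without the 3 arrays, and −0.0885 to 0.0929 with 1 left out. Bsn was −0.0224 with median centring, −0.0287 with quantile normalization and −0.077 with the 18S covariate, and −0.074 to 0.1092 with 1 left out. Gnb1 was 0.0164 with the 18S covariate and 0.1408 without the 3 arrays, Ctbp2 was −0.0757 without the 2 P6 arrays and −0.1516 without the 3, and Plk1 was −0.2344 to 0.0136 with 1 left out. Levels under 4.89 are limited by background.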

Other observations

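The mean list levels of the 4 rd1 P8 arrays had one order for 4 lists. Array 4 had the highest mean level of the rod list (11.48) and of the bipolar list (8.89) and the lowest of the mitotic list (5.15) and the progenitor list (7.54). Array 2 came next in each, and array 3 lay at the other end with 10.55 for the rod list, 7.81 for the bipolar list, 5.82 for the mitotic list and 8.18 for the progenitor list. This order was noticed after the values were seen and was not tested.

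Kcnj14, an inward rectifier potassium channel, was the only one of the 12 largest rises outside the lists, with values of 5.15, 6.40, 4.12 and 8.77 at rd1 P8, against 2.75, 3.19, 2.81 and 2.86 at rd1 P6 (3.21 ± 0.51, adjusted p = 4.73e-05). Pbk, a mitotic kinase among the largest falls, had values of 5.61, 4.83, 6.91 and 4.31 at rd1 P8, against 8.22, 7.72, 8.63 and 8.45 at rd1 P6 (−2.84 ± 0.37, adjusted p = 2.59e-06). Ptpro, a receptor tyrosine phosphatase, had values of 8.45, 8.18, 8.18 and 8.29 at rd1 P8 and of 8.72, 8.57, 8.32 and 9.09 at rd1 P6 (−0.40 ± 0.21, adjusted p = 0.23).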
